A study of Danio rerio with 12 samples.

Results

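Polycomb repressive complexes are chromatin regulators that keep developmental genes silent. Polycomb repressive complex 2 (PRC2) methylates histone H3 on lysine 27 through an Ezh enzyme held together with Eed and Suz12, while Polycomb repressive complex 1 (PRC1) ubiquitinates histone H2A through Rnf2 paired with a Pcgf protein such as Bmi1. In vertebrate embryos both complexes are known for restraining the Hox genes until their proper time and place.

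The expression of 10 genes that encode these proteins was examined in the transcriptome of zebrafish dorsal forerunner cells (DFCs), the progenitors of the ciliated left-right organizer. The 10 genes were taken by symbol (ezh2, ezh1, eed, suz12a, suz12b and jarid2b for PRC2, and rnf2, bmi1a, bmi1b and pcgf1 for PRC1), and all 10 were found among the 31953 genes of the deposited table. All embryos carried the transgene Tg(sox17:GFP), in which the sox17 promoter drives GFP in DFCs and endoderm. They were injected at the 1-cell stage with a morpholino against Vgll4l, with morpholinos against Yap and Taz together, or with a control morpholino, and fluorescent clusters were dissected at 90% epiboly. Each of the 3 groups (Vgll4l depleted, Yap/Taz depleted and control) had 4 libraries, each from a single cluster and described by the labels as biological replicates. Because the morpholinos were injected at this stage, the knockdown reached the whole embryo and not only the DFCs, and the clusters were dissected rather than sorted. The study asked how the loss of these transcriptional cofactors changes DFC gene expression.

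Values are normalized counts, that is, reads per gene divided by a size factor for each library. Between 8698990 and 11235726 reads per library were assigned to genes in the Vgll4l group, 9071323 to 10774775 in the Yap/Taz group and 4487894 to 6148871 in controls. A gene is said to rise or fall where its limma p, adjusted by Benjamini and Hochberg, was under 0.05 and its log2 fold change, on the log2(normalized count + 1) scale, was 1 or more in either direction. The libraries of a group differed by more than counting noise (variance ratios of 2.31 to 24.9 among Vgll4l pairs, 1.63 to 3.12 among Yap/Taz pairs and 1.92 to 10.4 among control pairs). Control replicates 1 and 2 gave 1.92 and control replicates 3 and 4 gave 1.98, against 7.42 to 10.4 between these pairs. P-values measure the spread between these libraries and treat each as independent, so they would be too small if such close libraries are not. The Vgll4l library of replicate 2 stood apart from the rest of its group, with root mean square log2 distances of 0.942 to 0.991 to the others against 0.535 to 0.545 among them.

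Marker genes and the knocked-down genes were followed in the clusters. The 9 forerunner markers found in the table summed to 0.356 to 0.367% of normalized counts in Vgll4l clusters, 0.443 to 0.446% in Yap/Taz clusters and 1.24 to 1.26% in controls, and none was at 0 in any library. All 9 fell in the Vgll4l group and 8 of 9 fell in the Yap/Taz group, beside 40.9% and 38.7% of all genes tested. The 9 include vgll4l, itself a target of the knockdown. The study reports the others as downregulated in Vgll4l depleted DFCs, and most of them also in Yap/Taz depleted DFCs. Their fall therefore cannot show the cell identity of the clusters. In these bulk samples, fewer cells of a type, less RNA per cell and lower expression of the markers themselves cannot be told apart. The 14 enveloping layer markers summed to 3.10 to 3.59% in Vgll4l clusters, 0.512 to 0.516% in Yap/Taz clusters and 0.429 to 0.460% in controls. In Yap/Taz clusters 2 of the 14 rose and 4 fell, beside 30.0% and 38.7% of all genes tested. Their median log2 fold change was 0.31, under the fold threshold, so the higher sum does not mean that most of them rose. The 15 yolk syncytial layer markers summed to 0.585 to 0.594% in Vgll4l clusters, 1.20 to 1.22% in Yap/Taz clusters and 0.184 to 0.205% in controls. The 13 mitochondrially encoded genes, whose share is a common sign of RNA or cell quality, summed to 6.15 to 6.37% in Vgll4l clusters, 9.30 to 9.48% in Yap/Taz clusters and 4.69 to 4.85% in controls, so that the groups did not overlap. vgll4l itself (ENSDARG00000068409) averaged 1062 ± 43.9 normalized counts in Vgll4l clusters, 1606 ± 53.6 in Yap/Taz clusters and 6944 ± 266 in controls (SD, n = 4 each), and passed as lower in both knockdowns. In Yap/Taz clusters yap1 averaged 1784 normalized counts, against 2250.5 in controls (log2 fold change -0.33, under the fold threshold), and wwtr1, the gene for Taz, averaged 8.97, against 0 in controls. A morpholino can act on translation or splicing, so the transcript level of its target need not show the knockdown. wwtr1 had 50 reads in the Yap/Taz group and 0 in controls, so no fall from control could be seen for it. Why its level was higher was not tested. The part of these markers and of the mitochondrial share in the results below was not tested.

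ezh2 (ENSDARG00000010571), the main H3K27 methyltransferase of proliferating cells in mammals, passed the test in neither knockdown. It ranged between 607 and 727 normalized counts in Vgll4l clusters, 819 and 865 in Yap/Taz clusters and 826 and 942 in controls. Every Vgll4l library lay below every control library, but the difference was small (log2 fold change -0.42, SE 0.07, limma adjusted p = 6.5e-05) and under the fold threshold. The Yap/Taz libraries overlapped the controls (-0.06, SE 0.07, adjusted p = 0.45).

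ezh1 (ENSDARG00000037894), which encodes the alternative Ezh methyltransferase, was detected in both knockdowns and was nearly without reads in control clusters. It had 47.4, 24.5, 53.7 and 41.5 normalized counts in the Vgll4l libraries, 20.7, 18.4, 26.7 and 20.4 in the Yap/Taz libraries, and 0, 0, 1.13 and 0 in the control libraries. No knockdown library came near the controls, and the knockdown groups overlapped each other. These values rest on 188 reads in the Vgll4l group, 119 reads in the Yap/Taz group and 1 read in the control group. As a ratio of reads corrected for library size, ezh1 was 126 times the control in Vgll4l clusters (95% counting interval 22.4 to 5010) and 64.9 times the control in Yap/Taz clusters (11.4 to 2585). Both rises passed (limma adjusted p = 2.7e-09 for Vgll4l and 2.1e-08 for Yap/Taz). ezh1 entered the test only through its level in the knockdowns.

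eed (ENSDARG00000099640), the subunit that binds the methylated histone tail, rose in both knockdowns and not by way of single libraries. It had 779, 547, 770 and 754 normalized counts in Vgll4l clusters, 544, 593, 603 and 569.96 in Yap/Taz clusters, and 85.8, 107, 105 and 111 in control clusters. The lowest knockdown library was well above the highest control library. The group means were 712 ± 110.9 in the Vgll4l group, 577 ± 26.4 in the Yap/Taz group and 102 ± 11.3 in controls. The log2 fold change was 2.78 after Vgll4l knockdown (SE 0.12, limma adjusted p = 3.9e-11) and 2.49 after Yap/Taz knockdown (SE 0.12, adjusted p = 1.1e-10).

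suz12a (ENSDARG00000070256) is the first of the pair of zebrafish paralogs for Suz12, the scaffold subunit of PRC2, and it fell in Vgll4l clusters. It had 269, 314, 261 and 263 normalized counts in Vgll4l clusters, 987, 1057, 999 and 964 in Yap/Taz clusters, and 909.8, 835, 742 and 727 in control clusters. The Vgll4l libraries were the low ones, and every Yap/Taz library lay above every control library by a small margin. The fall after Vgll4l knockdown had a log2 fold change of -1.53 (SE 0.08, limma adjusted p = 4.2e-10). The difference after Yap/Taz knockdown was 0.32 (SE 0.08, adjusted p = 0.0022), under the fold threshold.

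suz12b (ENSDARG00000098924), the other Suz12 paralog, fell in both knockdowns. It had 18.3, 28.3, 31.3 and 21.2 normalized counts in Vgll4l clusters, 121, 145, 140.02 and 127 in Yap/Taz clusters, and 434, 439, 374 and 302 in control clusters. The 3 groups were in this order without overlap, with the Vgll4l libraries lowest. Against control, the log2 fold change was -3.93 after Vgll4l knockdown (SE 0.17, limma adjusted p = 6.5e-11) and -1.52 after Yap/Taz knockdown (SE 0.17, adjusted p = 1.4e-06). The direct comparison of Vgll4l with Yap/Taz clusters gave -2.41 (SE 0.17, adjusted p = 1.2e-08).

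jarid2b (ENSDARG00000062268) encodes a Jarid2 protein, an accessory factor that helps to recruit PRC2. It had 77.9, 73.6, 88.9 and 88.5 normalized counts in Vgll4l clusters, 166, 159.7, 175 and 203 in Yap/Taz clusters, and 76.1, 83.9, 80.0 and 88.8 in control clusters. The Yap/Taz libraries were higher than all others, while the Vgll4l and control libraries occupied the same range. It rose after Yap/Taz knockdown (log2 fold change 1.08, SE 0.11, limma adjusted p = 6.7e-07), just past the fold threshold, and its difference after Vgll4l knockdown was within the spread of the libraries (-0.00, SE 0.11, adjusted p = 1.0).

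**Figure D1:**
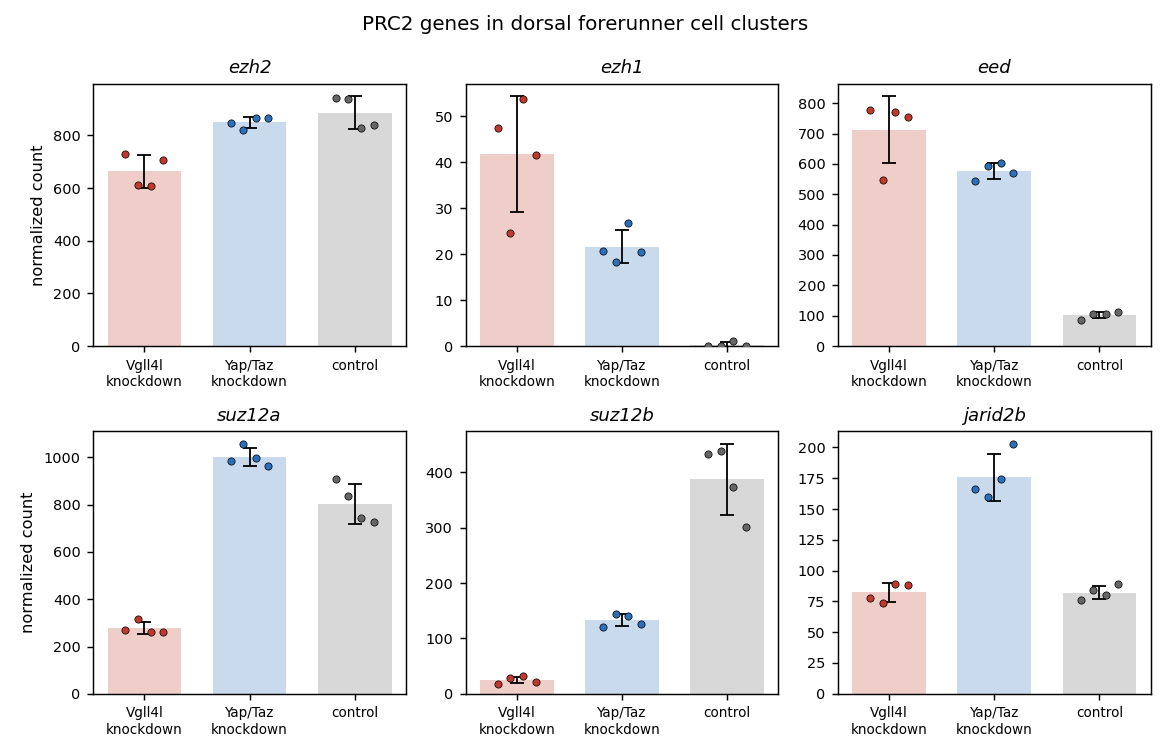
Normalized counts of the 6 PRC2 genes in dorsal forerunner cell clusters. Each point is 1 library, bars are means of 4 libraries and error bars are the SD, with a separate vertical axis from 0 for each gene. The control libraries of ezh1 sit at or near 0 with 1 read in all, the control libraries of eed lie between 85.8 and 111, and suz12b has means of 24.8 in Vgll4l clusters, 133 in Yap/Taz clusters and 387 in controls.

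rnf2 (ENSDARG00000010381), the E3 ligase that places ubiquitin on histone H2A and the catalytic core of PRC1, rose in Vgll4l clusters. It had 1125, 869.5, 1186 and 1225 normalized counts in Vgll4l clusters, 577, 601, 621 and 621 in Yap/Taz clusters, and 479, 511, 462 and 471 in control clusters. The groups did not overlap, and the Yap/Taz libraries lay only a little above the controls. The log2 fold change was 1.18 after Vgll4l knockdown (SE 0.09, limma adjusted p = 1.9e-08) and 0.33 after Yap/Taz knockdown (SE 0.09, adjusted p = 0.0038), the second under the fold threshold. With libraries scaled to their totals, an alternative chosen after seeing the data, the first value was 0.90 and no longer passed.

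bmi1a (ENSDARG00000006010) and bmi1b are paralogs that encode Bmi1, the Pcgf protein of canonical PRC1, and after Vgll4l knockdown they moved in opposite directions. bmi1a had 338, 359.7, 340.05 and 338 normalized counts in Vgll4l clusters, 745, 794, 733 and 763 in Yap/Taz clusters, and 806, 874, 688 and 635 in control clusters. All Vgll4l libraries were low, while the Yap/Taz libraries lay inside the control range. The fall after Vgll4l knockdown was -1.11 on the log2 scale (SE 0.09, limma adjusted p = 2.2e-08). It was near the fold threshold and dropped under it with TMM scaling (-0.91) and with edgeR (-0.92, and -0.90 without a filter). The Yap/Taz difference was 0.03 (SE 0.09, adjusted p = 0.80).

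bmi1b (ENSDARG00000013076) had 118, 149, 111 and 129 normalized counts in Vgll4l clusters, 6.66, 14.4, 12.3 and 10.9 in Yap/Taz clusters, and 12.95, 27.5, 33.8 and 30.8 in control clusters. The Vgll4l libraries were far above the rest, whereas 1 control library lay within the Yap/Taz range. It rose after Vgll4l knockdown (log2 fold change 2.30, SE 0.30, limma adjusted p = 4.7e-06). It fell after Yap/Taz knockdown (-1.14, SE 0.30, adjusted p = 0.0026). The fall passed the fold threshold narrowly and no longer did so with a pseudocount of 10 (-0.76), without control replicate 3 (-0.99) or without Yap/Taz replicate 1 (-0.94). The direct comparison of Vgll4l with Yap/Taz clusters gave 3.44 (adjusted p = 8.0e-08).

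In the RefSeq annotation of a later assembly, GRCz12tu, bmi1a overlaps commd3 and bmi1b overlaps dnajc1. Whether reads were counted by strand is not given in the sources used here, so reads of such partners may not be told apart. commd3 averaged 97.3 ± 15.7 normalized counts in Vgll4l clusters, 56.1 ± 12.4 in Yap/Taz clusters and 37.2 ± 6.70 in controls. It rose after Vgll4l knockdown (1.37), where bmi1a fell. dnajc1 averaged 996 ± 112 normalized counts in Vgll4l clusters, 769 ± 29.6 in Yap/Taz clusters and 836 ± 23.9 in controls and passed in neither comparison with control.

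pcgf1 (ENSDARG00000001249), the Pcgf protein of a variant PRC1 that also contains Bcor and Kdm2b, fell in Vgll4l clusters and rose in Yap/Taz clusters. It had 65.7, 65.1, 40.1 and 46.1 normalized counts in Vgll4l clusters, 409, 409.6, 396 and 404 in Yap/Taz clusters, and 167, 208, 144 and 181 in control clusters. No libraries of any 2 groups overlapped, and the controls lay in the middle. The log2 fold change was -1.69 after Vgll4l knockdown (SE 0.16, limma adjusted p = 1.8e-07) and 1.22 after Yap/Taz knockdown (SE 0.16, adjusted p = 6.2e-06). Between Vgll4l and Yap/Taz clusters it was -2.91 (SE 0.16, adjusted p = 7.1e-10).

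**Figure D2:**
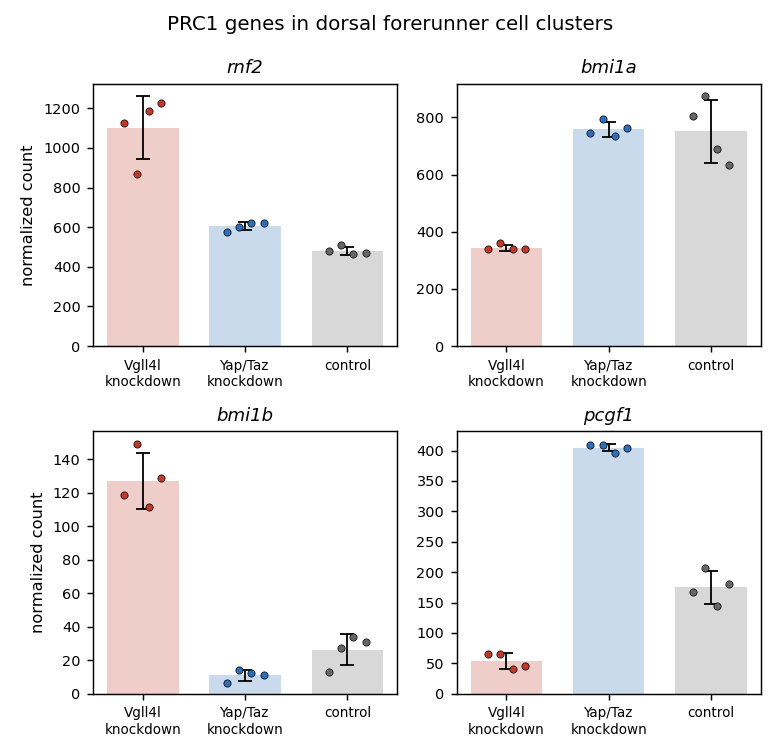
Normalized counts of the 4 PRC1 genes, drawn as points for libraries, bars for means of 4 libraries and error bars for the SD, with a separate vertical axis from 0 for each gene. Vgll4l libraries of bmi1b (111 to 149) stand above both other groups, those of bmi1a (338 to 359.7) below them, and pcgf1 is lowest in Vgll4l clusters and highest in Yap/Taz clusters (396 to 409.6).

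Both comparisons with control use the same 4 control libraries, and changes were common in the whole transcriptome. After Vgll4l knockdown 4 of the 10 genes rose (ezh1, eed, rnf2 and bmi1b) and 4 fell (suz12a, suz12b, bmi1a and pcgf1), against 71.4% of all 17609 genes tested that passed in either direction (30.5% higher and 40.9% lower). The Vgll4l and control libraries did not overlap for 9 of the 10 genes, against 79.2% of all genes. The median log2 fold change of the 10 genes was -0.21, beside -0.26 over all genes. The Polycomb count was thus near the background.

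After Yap/Taz knockdown 4 of the 10 genes rose (ezh1, eed, jarid2b and pcgf1) and 2 fell (suz12b and bmi1b), against 68.7% of all genes (30.0% higher and 38.7% lower). The libraries did not overlap for 7 of the 10 genes, against 80.9% of all genes. The median log2 fold change was 0.33, beside -0.27 over all genes. In direct comparison, 1 gene was higher in Vgll4l than in Yap/Taz clusters (bmi1b) and 5 were lower (suz12a, suz12b, jarid2b, bmi1a and pcgf1), against 63.2% of all genes (30.0% higher and 33.2% lower). The libraries of the knockdowns did not overlap for 8 of the 10 genes, against 75.3% of all genes, and the median log2 fold change of the 10 genes was -0.72, beside 0.00 over all genes. Without Vgll4l replicate 2, 7 genes passed in this comparison, with ezh1 higher in Vgll4l clusters (1.11, limma adjusted p = 0.0036, against 0.88 and adjusted p = 0.023 with all libraries). edgeR also placed ezh1 past the threshold (1.01).

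**Figure D3:**
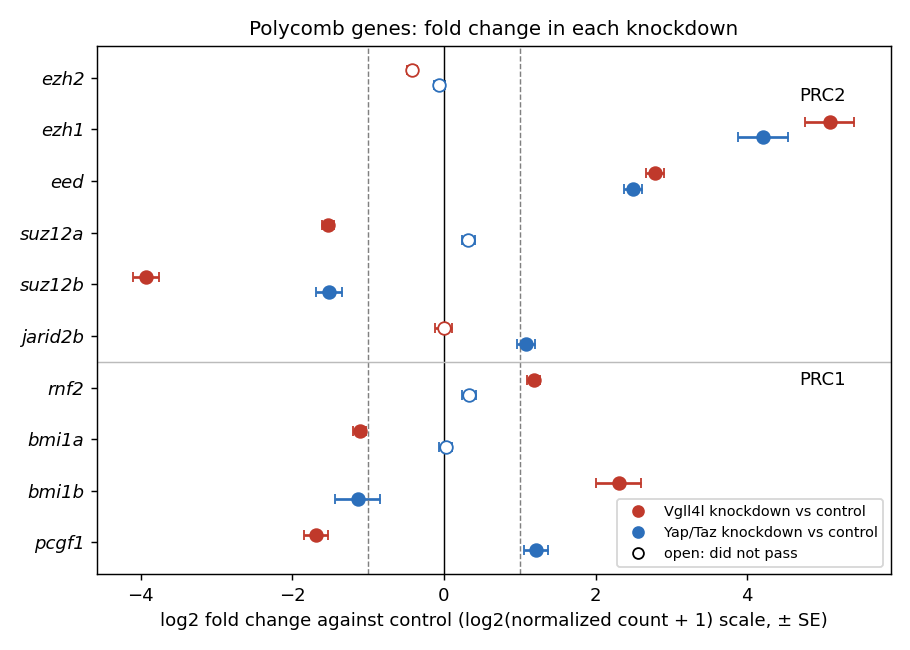
Log2 fold change of each Polycomb gene against control on the log2(normalized count + 1) scale, with Vgll4l knockdown drawn above Yap/Taz knockdown in each row and bars for the SE. Dashed lines mark a log2 fold change of 1 in each direction, and open points did not pass. ezh1 (5.09 and 4.21) and eed (2.78 and 2.49) lie to the right for both knockdowns, suz12b to the left for both, and bmi1b and pcgf1 on opposite sides. The ezh1 points depend on the added count of 1, since the controls hold 1 read.

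The paralog make-up of the reads was followed in each library. These shares are not corrected for transcript length, so only their difference between groups is read, and how reads that match both paralogs were counted is not given in the sources used here. ezh1 made up 3.85 to 8.14% of the ezh1 and ezh2 reads in Vgll4l libraries, 2.19 to 3.00% in Yap/Taz libraries and 0 to 0.136% in control libraries. The 3 control libraries with 0 ezh1 reads, of 582, 615 and 709 reads of the pair, allow shares of up to 0.515, 0.488 and 0.423% by the rule of 3 reads of the total. Their exact 95% upper limits, drawn in the plot of paralog shares, are 0.632, 0.598 and 0.519%, and both cover counting error only. The groups did not overlap. suz12a made up 89.3 to 93.6% of the suz12a and suz12b reads in Vgll4l libraries, 87.7 to 89.1% in Yap/Taz libraries and 65.5 to 70.7% in control libraries. The suz12a share was thus above the controls in every knockdown library, although suz12a itself fell only after Vgll4l knockdown. bmi1a made up 70.7 to 75.3% of the bmi1a and bmi1b reads in Vgll4l libraries, 98.2 to 99.1% in Yap/Taz libraries and 95.3 to 98.4% in control libraries. Here the Vgll4l libraries were the ones apart, and the Yap/Taz and control ranges overlapped.

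**Figure D4:**
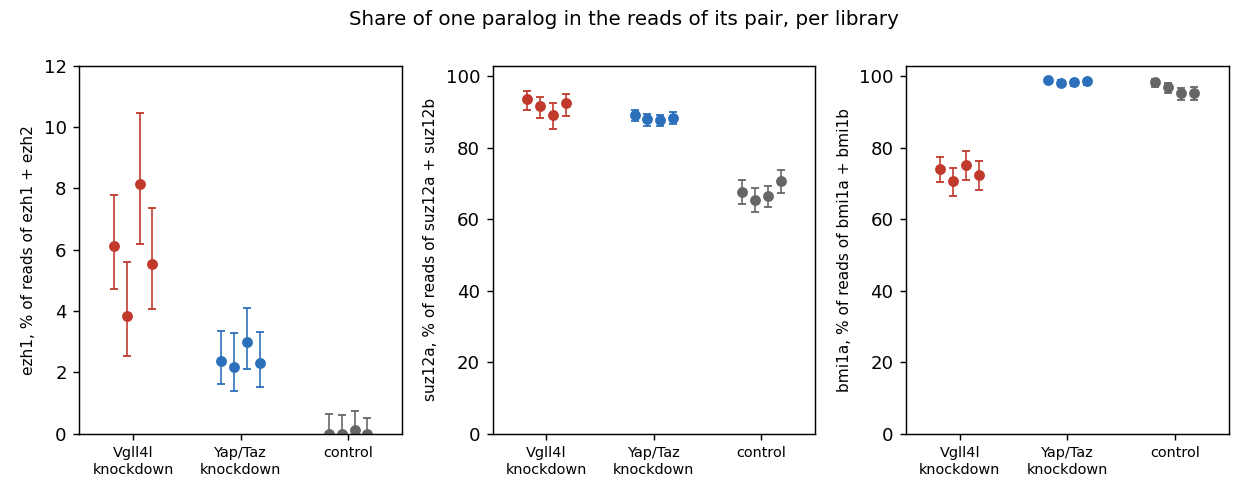
Share of ezh1, suz12a and bmi1a in the reads of their paralog pair, in percent, with 1 point per library and bars for the exact (Clopper-Pearson) 95% binomial interval, which covers counting error only. Control libraries lie at or below 0.136% for ezh1 and at 65.5 to 70.7% for suz12a, while for bmi1a the Vgll4l libraries lie lowest at 70.7 to 75.3%.

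Other Polycomb genes were taken from a list of 61 symbols, of which 47 matched 48 rows of the table and 38 rows were tested. Against control, 10 rose and 13 fell after Vgll4l knockdown (60.5%), while 13 rose and 12 fell in Yap/Taz clusters (65.8%), beside 71.4% and 68.7% of all genes. The median log2 fold change of the list was 0.28 for Vgll4l and 0.15 for Yap/Taz clusters, or 0.11 and 0.29 with 4 genes at 0 in a group set to their bound and 1 gene at the floor of 3 reads in both groups left out. Of the 38, 11 had a mean under 1 normalized count in some group, and for 6 this was so in controls. These 6 (bcor, bcorl1, phf19, kdm2ba, scmh1 and mbd5) passed the filter through a knockdown group where they were high. Their rises are among those counted, and no count without them was made.

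Among 7 PRC2 partners tested, 1 rose and 1 fell after Vgll4l knockdown, while 1 rose and 3 fell in Yap/Taz clusters (28.6% and 57.1%, beside 71.4% and 68.7% of all genes). phf19 (ENSDARG00000078050), a Polycomb-like protein that links PRC2 to chromatin, had 94.0, 79.3, 107 and 90.3 normalized counts in Vgll4l clusters and no read in any Yap/Taz or control library. It was at least 92.8-fold higher in Vgll4l than in control clusters, with the control group set to a floor of 3 reads in all. The other called PRC2 partners were named after their values were seen. jarid2a (ENSDARG00000060925), the paralog of jarid2b, had 498, 351, 563 and 597 normalized counts in Vgll4l clusters, 2.66, 3.99, 2.17 and 3.65 in Yap/Taz clusters, and 306, 270.09, 238 and 275 in control clusters. The Yap/Taz libraries were far below all others (log2 fold change -6.07, SE 0.19, limma adjusted p = 3.3e-12), where jarid2b was higher. mtf2, another Polycomb-like gene, averaged 131 ± 6.21 normalized counts in Vgll4l clusters, 4.68 ± 2.25 in Yap/Taz clusters and 255 ± 24.2 in controls, and it fell in Yap/Taz clusters against control (-5.58), while its Vgll4l difference of -0.95 was under the fold threshold. aebp2, a zinc finger partner of PRC2, fell in both (-1.09 for Vgll4l and -1.45 for Yap/Taz), and lcorl rose after Yap/Taz knockdown (3.14).

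Among 20 PRC1 partners tested, 6 rose and 7 fell after Vgll4l knockdown, while 7 rose and 7 fell in Yap/Taz clusters (65.0% and 70.0%, near the 71.4% and 68.7% of all genes). bcor (ENSDARG00000017798), a corepressor in the same variant PRC1 as Pcgf1, averaged 219 ± 31.6 normalized counts in Vgll4l clusters, 102 ± 4.71 in Yap/Taz clusters and 0.968 ± 1.15 in controls. The control value rests on 3 reads, and the counting ratio was 220.4 for Vgll4l (75.2 to 1070.5) and 102 for Yap/Taz (34.6 to 494). kdm2ba (ENSDARG00000036593), whose protein brings that complex to CpG islands, averaged 2.59 ± 4.59 normalized counts in Vgll4l clusters and 268 ± 9.55 in Yap/Taz clusters, with no read in controls. Of its 11 reads in Vgll4l clusters, 10 were in replicate 2. It was at least 268-fold higher in Yap/Taz than in control clusters. pcgf6 (ENSDARG00000069681), a Pcgf protein of another variant PRC1, averaged 309.7 ± 10.4 normalized counts in Vgll4l clusters, 152 ± 12.8 in Yap/Taz clusters and 8.93 ± 5.90 in controls. It rose in both (log2 fold change 5.16 and 4.14).

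Chromobox (Cbx) proteins read methylated H3K27 for canonical PRC1. The Cbx genes named by the rule were picked as large falls, so their fall is not a result about the family. The other Cbx genes tested, added after their values were seen, were cbx2 and cbx6a. Both fell in both knockdowns (cbx2 -1.57 for Vgll4l and -4.46 for Yap/Taz, cbx6a -3.56 and -3.19). cbx7a did not fall after Vgll4l knockdown (0.58, under the fold threshold). cbx8a (ENSDARG00000087327) had no read in any Vgll4l or Yap/Taz library, against 79.3, 42.7, 83.4 and 93.5 normalized counts in control clusters. It was at least 114-fold lower in Vgll4l clusters and at least 140.6-fold lower in Yap/Taz clusters than in controls. cbx6b (ENSDARG00000097543) averaged 0.938 ± 1.34 normalized counts in Vgll4l clusters, 31.3 ± 2.28 in Yap/Taz clusters and 104 ± 6.50 in controls. cbx7a (ENSDARG00000038025) averaged 139 ± 11.6 normalized counts in Vgll4l clusters, had 1 read over the 4 Yap/Taz libraries, and averaged 93.4 ± 16.1 normalized counts in controls. Its Yap/Taz level was lower than the control by a counting ratio of 519 (92.4 to 20568).

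The PR-DUB complex removes ubiquitin from histone H2A. Of its 8 genes tested, 2 rose and 4 fell after Vgll4l knockdown, while 3 rose and 2 fell in Yap/Taz clusters (75.0% and 62.5%, near the 71.4% and 68.7% of all genes). asxl2 (ENSDARG00000076501), an activator of the deubiquitinase, averaged 0.671 ± 0.457 normalized counts in Vgll4l clusters and had no read in Yap/Taz clusters, against 56.2 ± 10.7 in controls. foxk1 (ENSDARG00000037872), a transcription factor partner, averaged 123 ± 9.55 normalized counts in Vgll4l clusters, 5.40 ± 3.49 in Yap/Taz clusters and 494 ± 38.6 in controls. mbd5 (ENSDARG00000059581) averaged 0.871 ± 1.02 normalized counts in Vgll4l clusters and 70.6 ± 4.91 in Yap/Taz clusters, with no read in controls.

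The 3 H3K27 demethylase genes tested, named after their values were seen, did not move together. kdm6bb (ENSDARG00000056929) had 141, 145, 142 and 162 normalized counts in Vgll4l clusters, 373, 349.7, 334 and 433 in Yap/Taz clusters, and 3.24, 9.16, 12.4 and 11.8 in control clusters. The groups did not overlap, and it rose in both knockdowns (log2 fold change 4.00 for Vgll4l and 5.32 for Yap/Taz). kdm6a (ENSDARG00000061759) averaged 294 ± 33.9 normalized counts in Vgll4l clusters, 381 ± 19.7 in Yap/Taz clusters and 687 ± 36.4 in controls. It fell after Vgll4l knockdown (-1.23), and its Yap/Taz difference of -0.85 was under the fold threshold. kdm6al was low in all groups, with means of 4.17 in Vgll4l clusters, 6.84 in Yap/Taz clusters and 2.12 in controls. It rose after Yap/Taz knockdown (1.44, limma adjusted p = 0.011), on 37 reads in Yap/Taz clusters and 7 in controls. The libraries of these groups overlapped (2.89 to 11.2 against 0 to 3.55 normalized counts).

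Hox genes are textbook Polycomb targets, and their transcripts were counted beside the complexes. Of 48 Hox rows, 33 were tested. After Vgll4l knockdown 25 rose and 6 fell (93.9%, beside 71.4% of all genes). The median log2 fold change over the list was 4.08, beside -0.26 over all genes. After Yap/Taz knockdown 8 rose and 13 fell (63.6%, beside 68.7%), with a median of -0.45, beside -0.27 over all genes. Of the 33, 6 were at or under the floor of 3 reads in both Yap/Taz and control clusters and were tested through their level in Vgll4l clusters. Without genes of this kind, 21 of 27 Hox genes passed in that comparison (77.8%, beside 72.9% of all genes) and the Hox median was -0.75, with or without the bounds for 4 genes at 0 in 1 group. In the Vgll4l comparison no Hox gene was at the floor in both groups, and the bounds for 7 genes gave a median of 4.05. Of all genes not at the floor in both of these groups, 75.3% passed, with a median of -0.41. For 11 of the 33 the control mean was under 1 normalized count, and such a gene passed the filter through the group where it was high. No count without these genes was made, so the 25 rises and the median of 4.08 are partly set by the filter. Markers of neighbouring layers moved in the same libraries. After Vgll4l knockdown 11 of 14 enveloping layer genes rose and 0 fell, and 11 of 14 yolk syncytial layer genes rose and 1 fell. Over all genes tested, 30.5% rose and 40.9% fell in that comparison. After Yap/Taz knockdown 2 of 14 enveloping layer genes rose and 4 fell, and 10 of 14 yolk syncytial layer genes rose and 0 fell. Over all genes tested, 30.0% rose and 38.7% fell there. icn2, mxtx2, rbp4 and slc40a1 had control means under 1 normalized count and passed the filter through a knockdown group. Their rises are among those counted, and no count without them was made. The part of the markers of neighbouring layers in the Hox values was not tested.

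hoxb13a (ENSDARG00000056015) had 293, 228, 286 and 319 normalized counts in Vgll4l clusters and no read in Yap/Taz or control clusters, at least 283-fold higher in Vgll4l than in control clusters. hoxc5a (ENSDARG00000070340) averaged 328 ± 65.7 normalized counts in Vgll4l clusters, 22.9 ± 4.01 in Yap/Taz clusters and 0.578 ± 0.668 in controls. hoxc8a (ENSDARG00000070346) averaged 308 ± 23.6 normalized counts in Vgll4l clusters, 235 ± 26.2 in Yap/Taz clusters and 2.04 ± 1.60 in controls. These genes were nearly silent in control clusters, but they were picked as the largest rises, so this is not a result about the Hox genes. hoxd12a (ENSDARG00000059263) averaged 1.17 ± 1.79 normalized counts in Vgll4l clusters and 137 ± 4.96 in Yap/Taz clusters, with no read in controls.

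The Hox genes picked as the largest falls were expressed in control clusters, as that choice requires. hoxb1b (ENSDARG00000054033), an early hindbrain and gastrula Hox gene, averaged 505 ± 7.44 normalized counts in Vgll4l clusters, 31.6 ± 2.11 in Yap/Taz clusters and 145 ± 7.33 in controls. It rose after Vgll4l knockdown (log2 fold change 1.79) and fell after Yap/Taz knockdown (-2.16). hoxb3a (ENSDARG00000029263) averaged 220 ± 9.33 normalized counts in Vgll4l clusters, 133 ± 16.4 in Yap/Taz clusters and 542 ± 52.2 in controls, and fell in both. hoxc11b (ENSDARG00000102631) averaged 0.899 ± 1.34 normalized counts in Vgll4l clusters and had no read in Yap/Taz clusters, against 66.1 ± 7.11 in controls.

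**Figure D5:**
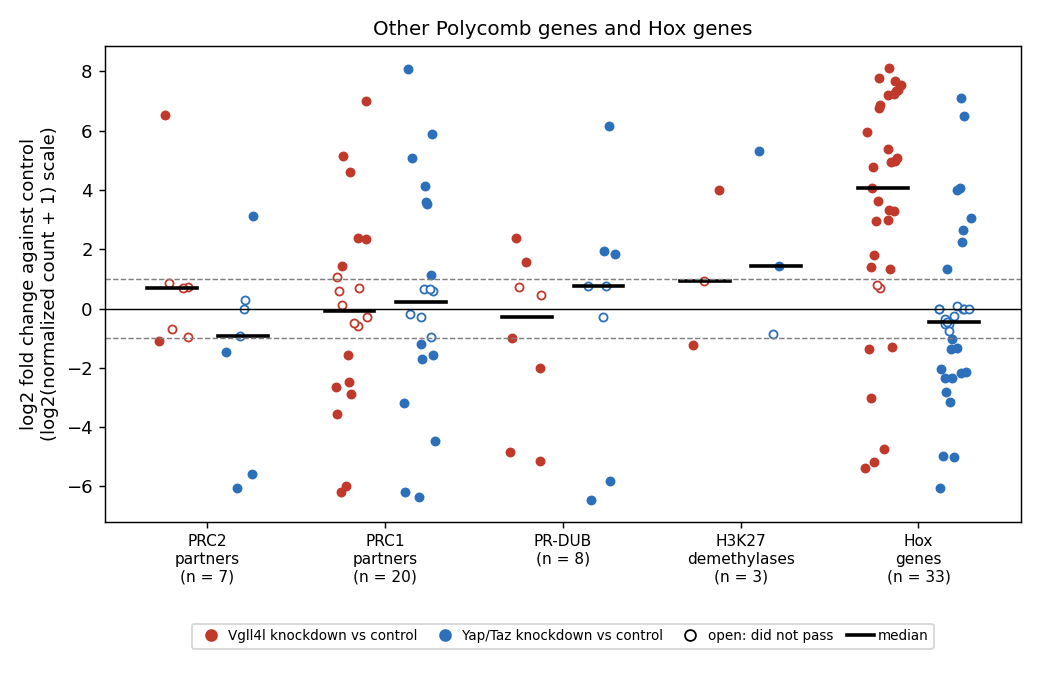
Log2 fold change against control of every tested gene among the other Polycomb genes, the H3K27 demethylases and the Hox genes, with Vgll4l knockdown left of Yap/Taz knockdown in each list, filled points for genes that passed and black bars for the median. The Hox median lies at 4.08 for Vgll4l and -0.45 for Yap/Taz knockdown, and every list has points on both sides of 0. For 11 of the 33 Hox genes the control mean was under 1 normalized count, so the Hox medians are partly set by the filter. Without 6 Hox genes at the floor in both Yap/Taz and control clusters, the Yap/Taz median was -0.75. Points of genes without reads in a group depend on the added count of 1.

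The patterns most like those of the Polycomb genes were sought over the 12 libraries for the most abundant member of each complex by normalized count, which is not corrected for length. Among 6983 genes whose mean was 100 or more, ezh2 was most like fam73a (Pearson r = 0.956), cmpk (0.950) and si:ch211-157b11.12 (0.942). cmpk, for example, averaged 320.1 ± 29.0 normalized counts in Vgll4l clusters, 428 ± 14.6 in Yap/Taz clusters and 468 ± 64.7 in controls. rnf2 was most like gabarapb (0.995), atrx (0.994) and dstyk (0.994). atrx, which encodes a chromatin remodeler, averaged 2249.98 ± 231 normalized counts in Vgll4l clusters, 1477 ± 45.6 in Yap/Taz clusters and 1287 ± 21.9 in controls. These coefficients describe 12 libraries that fall into 3 groups and share size factors, and they carry no test.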

How the data were processed

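Embryos of Tg(sox17:GFP) were dissected and amplified with the SMART-Seq v4 kit, and libraries were sequenced as 50-bp single-end reads. The authors aligned reads with STAR to GRCz10, counted Ensembl genes with featureCounts and normalized with DESeq2. Versions and the strand setting are not given in the sources used here. The deposited signal is headed TPM, but columns do not sum to a fixed total and 100% of values are whole multiples of a step per library (tolerance 0.001). They were therefore treated as reads divided by a size factor, and reads were recovered. The table also holds the authors' own fold changes and adjusted p-values, which were not used. No reads or coordinates were analysed here.

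limma 3.58.1 (limma-trend, R 4.3.3) was fitted to log2(normalized count + 1) over the 12 libraries and the 17609 genes with a mean of at least 1, with Benjamini-Hochberg adjustment per comparison. The spread is shared by the 3 groups. The fit was tested on simulated counts in which a small set of genes changed, in the Vgll4l group only. That setting does not cover changes in most genes, as seen here. Intervals are exact binomial 95% intervals. Where a group had no read, folds use a floor of 3 reads for its 4 libraries together. Gene symbols absent from the table were looked up by Ensembl ID for 8380 genes. The alternatives tried were other pseudocounts (0.5, 10), other filters (none, mean 10 or more), TMM, edgeR 4.0.16, DESeq2 1.42.0, groups fitted alone, a replicate block, near-identical libraries averaged, other fold thresholds and each library left out. Scaling to library totals was added after the data were seen. Python 3.11.15, pandas 2.3.3, numpy 2.4.6, scipy 1.17.1 and matplotlib 3.10.9 served for tables and figures.

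The members and gene lists were chosen with earlier results of these data known. Genes named were the 10 members, the 3 largest rises and falls per comparison with control among called other Polycomb genes whose higher group averaged 50 or more, 2 of each among Hox genes, and 3 genes of most similar pattern. No gene sequences or positions are given.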

Additional observations from a re-analysis of the deposited data

Results flagged for a closer look

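Values of a single library far from the other 3 of its group were searched by Dixon's gap ratio over 39 groups of 4 values, where chance flags about 1 in 20 groups, and 5 were found. In 3 of them the library was Vgll4l replicate 2, with 547 normalized counts of eed against 754 to 779 in the other Vgll4l libraries, 314 of suz12a against 261 to 269, and 359.7 of bmi1a against 338 to 340.05. In each it was the Vgll4l library nearest the control mean, as it was for 5 of the 10 Polycomb genes and for 47.2% of all genes tested. Without it, 8, 6 and 7 of the 10 genes passed in Vgll4l against control, Yap/Taz against control and Vgll4l against Yap/Taz, beside 8, 6 and 6 with all libraries. The other findings are the single ezh1 read of control replicate 3, as 1.13 normalized counts and as 0.136% of its ezh1 and ezh2 reads (exact 95% interval 0.00345 to 0.757%). Both rest on the same read, and a lone read among libraries at 0 always gives a gap ratio of 1.0. The rate of 1 in 20 does not apply to such values, and the 39 groups share libraries and reads.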

How the results depend on the processing

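Of 168 counts of genes under alternatives that kept all libraries, 162 stayed within 1.5 times the main count. With a library left out, every such count did as well. The 180 values compared there also held paralog shares, judged by whether their group mean moved by less than 1 SD. Leaving out 1 of 4 libraries cannot move a mean that far, so the shares were not tested by this. The averaging alternative joined libraries that differed by under 2.5 times counting noise in variance, directly or through another library. It merged all 4 Yap/Taz libraries into 1 and left 3 Vgll4l and 2 control units, so its Yap/Taz tests assume that a lone sample varies like the other groups. With a log2 fold change of at least 2, 4 Polycomb genes passed in Vgll4l against control, 2 in Yap/Taz against control and 3 in Vgll4l against Yap/Taz, and 14 other Polycomb genes passed in the last. With no fold threshold all 10 Polycomb genes passed between the knockdowns. With a pseudocount of 10, 12 Hox genes passed in Yap/Taz against control. Values near 0 changed sign: jarid2b in Vgll4l against control was 0.20 with TMM, 0.19 with edgeR, 0.20 with edgeR without a filter and -0.041 to 0.049 with a library left out (above 0 without control replicate 2 or 4 or Vgll4l replicate 1 or 2); ezh2 in Yap/Taz against control was 0.077 with TMM, 0.079 with edgeR and 0.085 without a filter; bmi1a in Yap/Taz against control was -0.0052 with library totals and -0.051 to 0.10 with a library left out (below 0 without control replicate 3 or 4). TMM moved the median of all genes by 0.18 (Vgll4l) and 0.12 (Yap/Taz), and library totals by -0.21 (Vgll4l). The replicate numbers did not pair the samples (correlations of -0.056 to 0.025, not always best with the same number), and a replicate block gave 12563, 12106 and 11128 calls over all genes, beside 12570, 12100 and 11131, with 8, 6 and 6 Polycomb genes as before. Depth limits genes near 0, such as ezh1 in controls.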
